A study of Mus musculus with 4 samples.

Results

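The 10 genes described here encode transcription regulators that hold a cell in the B cell state or carry it into the antibody-secreting state: Pax5, Ebf1, Bach2, Bcl6, Spib, Irf8, Irf4, Prdm1, Xbp1, and Pou2af1. They were taken by symbol from the feature table of the deposited single-cell matrix, which lists 31053 genes, and all 10 were found. The matrix holds B cells purified from spleens of WT mice in 2 groups of 2 samples. Bregs-CpG were kept for 3 days with CpG B ODN 1668, a Toll-like receptor agonist, and Bregs-TLR had the same culture with LPS, PMA, and ionomycin present during its last 5 hours. The labels give neither the age of the mice nor whether replicates came from separate animals. Barcode endings number 4 libraries from 5 to 8 but name no sample, so no library could be placed in either group, and the values below are descriptions of libraries and of cells within them, with no test between Bregs-TLR and Bregs-CpG.

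Pax5 and Ebf1 commit progenitors to the B lineage and keep B cell genes on. Bach2 and Bcl6 are repressors that delay plasma cell differentiation, and Bcl6 is the main regulator of germinal center B cells. Irf8 and Spib support the B cell program, the latter together with the related factor PU.1. When a B cell becomes an antibody-secreting cell, Irf4 and Prdm1 (which encodes Blimp-1) take over, Prdm1 shuts off Pax5 and other B cell genes, and Xbp1 enlarges the secretory apparatus. Pou2af1 encodes OCA-B, the B cell coactivator of octamer-binding factors. Jchain encodes the joining chain of secreted IgM and IgA and is a common marker of antibody-secreting cells.

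Promoter sequences are shown for Prdm1 and Pou2af1, which were among the members whose letters matched a searched motif. They run from 250 bases before to 50 bases after the RefSeq start on GRCm38.p6, on the strand of the gene, and a promoter was found for all 10 members (13 promoters). Capitals mark the motif. In Prdm1 (chr10:44458699-44458998, minus strand) this is a match to the loose AP-1 pattern TGANTCA, which leaves its middle base free. The pattern was searched on both strands and reads as itself on either. The letters found were TGAATCA, with A at the free base. This window lies inside the Prdm1 span given below, at a start other than the outermost. In Pou2af1 (chr9:51213440-51213739, plus strand) it is the core TGACGTGG of the unfolded protein response element, a sequence that XBP1 is known to bind.
Prdm1 promoter: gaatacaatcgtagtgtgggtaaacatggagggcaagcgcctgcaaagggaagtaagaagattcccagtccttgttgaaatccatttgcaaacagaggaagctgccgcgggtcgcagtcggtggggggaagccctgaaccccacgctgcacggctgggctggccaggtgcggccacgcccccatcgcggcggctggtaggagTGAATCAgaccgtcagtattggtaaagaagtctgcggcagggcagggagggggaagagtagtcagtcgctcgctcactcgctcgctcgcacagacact
Pou2af1 promoter: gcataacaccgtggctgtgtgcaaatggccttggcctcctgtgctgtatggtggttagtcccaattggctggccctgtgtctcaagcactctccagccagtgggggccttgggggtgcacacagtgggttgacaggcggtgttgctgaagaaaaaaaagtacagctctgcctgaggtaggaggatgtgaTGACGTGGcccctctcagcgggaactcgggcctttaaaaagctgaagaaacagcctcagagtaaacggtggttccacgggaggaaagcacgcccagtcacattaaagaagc
The match to the AP-1 pattern began at position -48 of the Prdm1 start, and the pattern was present in 7.81% of all 32851 promoters of this length. The Pou2af1 motif began at position -61 and was present in 0.676% of them. Among the other members, the interferon regulatory factor repeat, GAAA followed after any 2 bases by GAAA, was found in an Ebf1 promoter (3.44% of all promoters), and the joint ETS and IRF motif, GGAA followed after any 2 bases by GAAA, was found in Bach2 and in the second Bcl6 promoter (2.72%). The octamer ATGCAAAT, the EBF motif (TCCC and GGGA with 2 bases between), and the cyclic AMP response element TGACGTCA, searched on both strands, were present in no member promoter and in 1.74%, 0.904%, and 1.79% of all promoters. The matched windows of Ebf1, Bach2, and Bcl6 also lie inside the gene spans given below, at starts other than the outermost. These matches describe letters only, and no binding was measured.

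Of the 19920 barcodes, 18534 passed the limits of at least 1000 genes and under 10% mitochondrial UMIs (unique molecular identifiers, the counted molecules), with 4003 to 5621 cells per library and a median of 8772 UMIs per cell in libraries 5 and 6 and of 10236 in libraries 7 and 8. Levels are given as CPM, the UMIs of a gene per 1000000 UMIs summed over the cells of a class, with exact Poisson 95% intervals that cover counting error only. Cells with at least 5 Jchain UMIs were called Jchain-high: 24, 39, 54, and 28 cells in libraries 5, 6, 7, and 8, or 0.572% to 0.961% of passing cells. The threshold had few cells near it, since 6 cells held 3 or 4 Jchain UMIs and 6 held 5 to 7. Summed levels of the plasma cell markers Mzb1, Sdc1, Derl3, Tnfrsf17, and Txndc5 were 3557 to 9220 CPM in Jchain-high cells and 164 to 1521 CPM in the other cells. Mzb1 made up most of the sum in Jchain-high cells, at 7930 of 8948 CPM in libraries 5 and 6 and 3108 of 3707 CPM in libraries 7 and 8. Tnfrsf17 was at 0 in Jchain-high cells of libraries 5 and 8. Of 4 markers with at least 10 UMIs, 4 were at least 2-fold higher in libraries 5 and 6 and 3 in libraries 7 and 8, beside 10.2% and 10.0% of all genes. The marker that was within 2-fold between the classes of libraries 7 and 8 was Sdc1. The B cell markers Cd79a, Cd79b, and Ms4a1 were each counted in both classes of every library. T cell, NK cell, and erythroid markers summed to at most 6.40 CPM and macrophage, monocyte, or neutrophil markers to at most 19.2 CPM in any class of any library, and Cd3e, Cd4, Cd8a, Ncr1, Lyz2, S100a8, and Siglech were at 0 throughout. Of the barcode sequences, 29 occurred in more than 1 library, none of them in a Jchain-high cell.

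Within libraries 5 and 6, all 10 members differed at least 2-fold between Jchain-high and other cells. Irf4, Prdm1, Xbp1, and Pou2af1 were higher (4 members), whereas Pax5, Ebf1, Bach2, Bcl6, Irf8, and Spib were lower (6 members). Of all 12929 genes with at least 10 UMIs in these cells, 10.2% were at least 2-fold higher and 13.2% at least 2-fold lower. In libraries 7 and 8, Prdm1, Xbp1, and Pou2af1 were at least 2-fold higher and Bcl6 and Spib at least 2-fold lower, with the other 5 members within 2-fold, against 10.0% and 9.02% of 12821 genes. Among genes with at least 10 UMIs expected in the smaller class, a filter chosen after seeing the data, those shares were 3.90% and 15.6% in libraries 5 and 6 and 3.10% and 8.84% in libraries 7 and 8.

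Immunoglobulin transcripts took 15.9% to 25.5% of the UMIs of Jchain-high cells and 0.381% to 1.75% of those of other cells, and the median log2 ratio over the genes with 10 expected UMIs was -0.41 in libraries 5 and 6 and -0.33 in libraries 7 and 8. Counted from these medians, the 4 higher members of libraries 5 and 6 stayed past 2-fold, while of the lower members only Spib did, at a log2 ratio of -1.28, and the other 5 lay between -0.67 and -0.98. In libraries 7 and 8, the same centring left Spib as the only member at least 2-fold lower (-1.18) and placed Irf8 at 1.00. No member changed direction. Single libraries also set the count of lower members in libraries 7 and 8, which was 0 without library 7 and 4 without library 8. In libraries 5 and 6 the count was 4 without library 5, with Pax5 at -0.91 and Bcl6 at -0.94, and 6 without library 6.

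**Figure D1:**
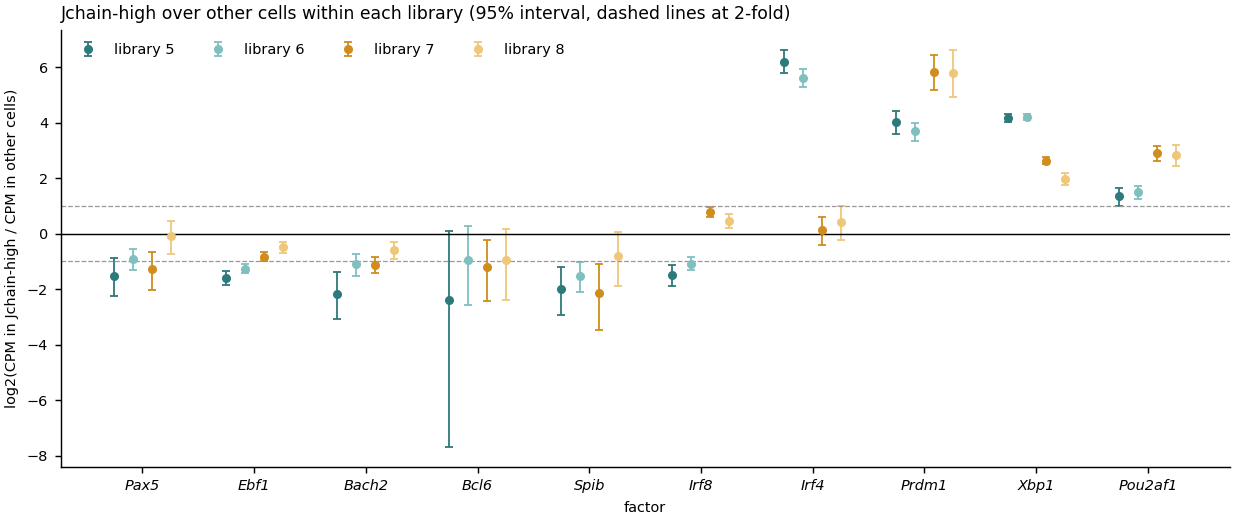
Log2 ratio of CPM in Jchain-high cells to CPM in other cells (y axis) for each factor (x axis), with 1 point per library and bars for the exact 95% interval of the ratio; dashed lines mark 2-fold. Prdm1, Xbp1, and Pou2af1 lie above 0 in all 4 libraries, Irf4 is far above 0 only in libraries 5 and 6 (6.20 and 5.61), and Irf8 lies below 0 in libraries 5 and 6 and above 0 in libraries 7 and 8.

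Across the 4 libraries taken separately, Irf4, Prdm1, Xbp1, and Pou2af1 were higher in Jchain-high cells in each, as were 5.90% of 13936 genes. Pax5, Ebf1, Bach2, Bcl6, and Spib were lower in each, as were 20.8% of genes. Intervals included 0 for Irf4 in libraries 7 and 8, Bcl6 in libraries 5, 6, and 8, and Pax5 and Spib in library 8. Among genes with at least 10 expected UMIs, 24.4% in libraries 5 and 6 and 26.2% in libraries 7 and 8 had log2 ratios above 0. A lower value was thus the more common one for well counted genes. Irf8 was the remaining member, lower in libraries 5 and 6 and higher in libraries 7 and 8, a pattern seen in 3.28% of genes.

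Prdm1 (chr10:44437177-44528501, minus strand, GRCm38), the repressor that drives the antibody-secreting program, had the largest ratio between the classes of any member in libraries 7 and 8. Its level in Jchain-high cells was 170, 153, 47.4, and 45.1 CPM in libraries 5, 6, 7, and 8. The other cells had 10.4, 11.9, 0.843, and 0.818 CPM. Jchain-high cells were thus higher in every library, and within either class the values of libraries 5 and 6 lay above those of libraries 7 and 8. The log2 ratio between the classes was 3.82 (95% interval 3.56 to 4.08) in libraries 5 and 6 and 5.81 (5.30 to 6.30) in libraries 7 and 8. The 82 Jchain-high cells of libraries 7 and 8, or 0.852% of cells, held 38.4% of the 146 Prdm1 UMIs there (30.4% to 46.8%), whereas the 63 cells of libraries 5 and 6 held 11.8% of 1216 UMIs (10.1% to 13.8%).

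Xbp1 (chr11:5520659-5525893, plus strand), the regulator of the secretory apparatus, was the member seen in most Jchain-high cells. Levels were 1367, 1418, 652, and 410 CPM in the Jchain-high cells of libraries 5 to 8 and 75.7, 76.3, 105, and 104 CPM in the other cells. The intervals of the summed levels did not overlap between the classes in any library, although single cells of the classes did, and the library pairs were ordered oppositely in them, with Jchain-high cells of libraries 5 and 6 at the top and their other cells at the bottom. The log2 ratio was 4.20 (4.12 to 4.29) in libraries 5 and 6 and 2.42 (2.31 to 2.54) in libraries 7 and 8. These 3' tag counts do not separate the spliced from the unspliced form of the transcript.

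Pou2af1 (chr9:51213708-51240080, plus strand), the octamer coactivator whose promoter is printed above, was at 266, 303, 150, and 149 CPM in Jchain-high cells and at 105, 108, 20.2, and 21.0 CPM in the others. Here the levels of libraries 7 and 8 were lower in both classes, and more so among the other cells. Accordingly, the ratio was larger in libraries 7 and 8, at a log2 value of 2.87 (2.64 to 3.09), than in libraries 5 and 6, at 1.45 (1.26 to 1.62).

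Irf4 (chr13:30749226-30766976, plus strand), which acts in activated B cells at low level and in plasma cells at high level, set Jchain-high cells apart in libraries 5 and 6 far more than in libraries 7 and 8. Jchain-high cells had 240, 200, 47.4, and 54.1 CPM in libraries 5 to 8, and the other cells had 3.26, 4.09, 43.7, and 40.5 CPM. Among other cells the level was thus low in libraries 5 and 6, while in libraries 7 and 8 both classes lay close together. The log2 ratio was 5.85 (5.59 to 6.11) in libraries 5 and 6, a 57.8-fold higher level, and 0.23 (-0.16 to 0.60) in libraries 7 and 8, an interval that includes no difference. Jchain-high cells held 35.4% of Irf4 UMIs in libraries 5 and 6 (31.4% to 39.6%) but 1.29% in libraries 7 and 8 (0.987% to 1.66%).

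Irf8 (chr8:120736358-120756694, plus strand), a factor of B cells and dendritic cells, was the member whose direction differed between the library pairs. Its level in Jchain-high cells was 192, 266, 344, and 270 CPM, against 539, 564, 202, and 196 CPM in the other cells. Jchain-high cells were therefore the lower class in libraries 5 and 6 and the higher class in libraries 7 and 8. The log2 ratio was -1.20 (-1.40 to -1.01) in the former and 0.67 (0.52 to 0.82) in the latter, and the difference was not tested because libraries could not be assigned to samples. Summed levels of genes listed as dendritic cell markers (Siglech, Flt3, Xcr1, Zbtb46, Clec9a, and Ly6c2) were at 7.91 and 18.0 CPM in Jchain-high cells of libraries 7 and 8. In the others they were at 0.700 and 0.752 CPM. The Jchain-high values rest on 6 and 8 UMIs, with Flt3 at 0 in library 7 and Zbtb46 at 0 in library 8. All 3 markers with at least 10 UMIs over both classes together were at least 2-fold higher, beside 10.0% of all genes. A marker at 0 in these Jchain-high cells was set to 3 counts, so at such levels it could not be called lower. A single UMI there was 0.832 CPM, above the 0.722 CPM of all these markers summed in the other cells. It could thus make a marker at least 2-fold higher by itself, and no reading is drawn from this count. Irf8 was lower in Jchain-high cells of libraries 5 and 6. The summed markers there were at 6.40 and 11.8 CPM (2 and 7 UMIs) against 5.37 and 6.56 CPM. Of 4 markers with at least 10 UMIs there, 1 was at least 2-fold higher, beside 10.2% of all genes. Siglech, Xcr1, and Clec9a were at 0 in the Jchain-high cells of libraries 5, 6, 7, and 8, and the part of the remaining markers in the Irf8 result was not tested. Of the list, only Ly6c2 was counted in the Jchain-high cells of each library, and whether these sums reflect dendritic cells was not tested.

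**Figure D2:**
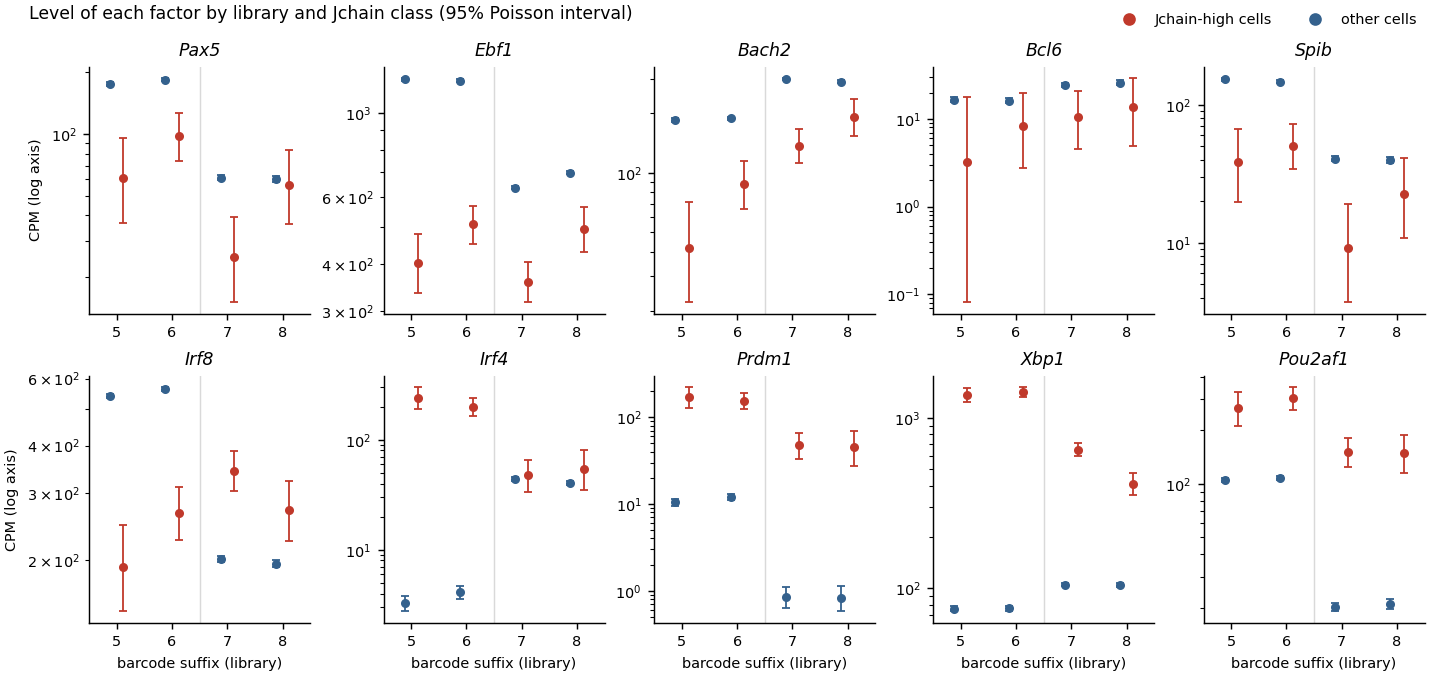
Level of each factor in CPM (y axis, log scale, different in each panel) in libraries 5 to 8 (x axis), with red points for Jchain-high cells, blue points for other cells, and bars for the exact Poisson 95% interval. Prdm1, Xbp1, and Pou2af1 are higher in Jchain-high cells of every library, and the Irf4 points of the other cells step from 3.26 and 4.09 CPM in libraries 5 and 6 to 43.7 and 40.5 CPM in libraries 7 and 8.

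Pax5 (chr4:44524757-44710487, minus strand) was at 60.8, 97.6, 25.04, and 56.3 CPM in Jchain-high cells and at 175, 184, 61.2, and 60.3 CPM in the others. It was lower in Jchain-high cells of libraries 5, 6, and 7, and in library 8 the intervals of the classes overlapped (log2 ratio -0.10). The 25 Pax5 UMIs of Jchain-high cells in library 8 came from 4 of 28 cells, with 14 in a single cell. Unthinned, Pax5 was found there in 14.3% of Jchain-high cells against 40.4% of the others. The log2 ratio was -1.08 (-1.42 to -0.76) in libraries 5 and 6 and -0.73 (-1.20 to -0.31) in libraries 7 and 8. Spib (chr7:44525993-44532071, minus strand) followed the same order, with 38.4, 50.5, 9.22, and 22.5 CPM in Jchain-high cells and 153, 147, 40.8, and 39.7 CPM in the others. It had the lowest ratios of all members, at log2 values of -1.69 (-2.17 to -1.26) and -1.51 (-2.29 to -0.83), and was the only one to stay at least 2-fold lower in both pairs under each denominator and centring, although in library 8 alone it was at -0.82.

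Ebf1 (chr11:44617317-45008091, plus strand) remained well detected in Jchain-high cells, at 403, 508, 358, and 494 CPM, but was higher in the other cells, at 1225, 1216, 635, and 696 CPM. The log2 ratio was -1.37 (-1.51 to -1.23) in libraries 5 and 6 and -0.69 (-0.82 to -0.57) in libraries 7 and 8. Bach2 (chr4:32238804-32586108, plus strand) was at 41.6, 87.5, 137, and 192 CPM in Jchain-high cells and at 186, 189, 298, and 290 CPM in the others. Unlike Pax5, Ebf1, and Spib, it was higher in libraries 7 and 8 within each class, while its ratios, -1.39 (-1.76 to -1.04) and -0.91 (-1.12 to -0.70), were of the same sign. Bcl6 (chr16:23965052-23988852, minus strand) was counted rarely, with 6 UMIs in the Jchain-high cells of libraries 5 and 6 and 14 in those of libraries 7 and 8. Its log2 ratios of -1.31 (-2.76 to -0.18) and -1.11 (-1.99 to -0.36) accordingly had the widest intervals.

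Deep cells bore on the size of these differences. Cells among the 5% with the most UMIs of their library made up 12.7% of Jchain-high cells in libraries 5 and 6 (5.65% to 23.5%) and 15.9% in libraries 7 and 8 (8.72% to 25.6%), against 4.95% and 4.92% of the others. Without them, the B cell factors were lower still in Jchain-high cells of libraries 7 and 8, with log2 ratios of -2.34 for Pax5, -1.07 for Ebf1, -1.59 for Bach2, -1.90 for Bcl6, and -2.12 for Spib, so that 5 members were at least 2-fold lower. Irf8 was at 0.67 there as before. In libraries 5 and 6 without the deepest cells, 6 members were at least 2-fold lower, as before. Their log2 ratios were -1.61 for Pax5, -2.13 for Ebf1, -2.21 for Bach2, -1.77 for Bcl6, -1.74 for Irf8, and -2.74 for Spib. Single cells also held large parts of some sums, which the counting intervals do not cover. In Jchain-high cells of library 6, a single cell held 123 of 302 Ebf1 UMIs. For Irf8 this was 56 of 158 UMIs, for Pax5 18 of 58, and for Spib 14 of 30. In those of library 8, a single cell held 29 of 85 Bach2 UMIs. No doublet caller was run, and whether the deepest barcodes held more than 1 cell was not tested.

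Between the library pairs, over all passing cells, Irf4 was the only member at least 2-fold higher in libraries 7 and 8 (log2 ratio 2.90, 95% interval 2.77 to 3.03). Pax5 (-1.56), Irf8 (-1.45), Spib (-1.89), Prdm1 (-3.24), and Pou2af1 (-2.30) were at least 2-fold lower, and Ebf1 (-0.88), Bach2 (0.65), Bcl6 (0.62), and Xbp1 (0.31) were within 2-fold. Among 13936 genes, 16.3% were at least 2-fold higher and 19.0% at least 2-fold lower. All 10 members had both values of one pair above both values of the other, 4 being higher in libraries 7 and 8 and 6 lower, but so did 45.3% and 40.2% of all genes, and the libraries of a pair differed by at most 1.29-fold for any member. Pax5, Ebf1, Irf8, Spib, Prdm1, and Pou2af1 were the 6 lower members, and Bach2, Bcl6, Irf4, and Xbp1 the 4 higher ones.

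Among Jchain-high cells alone, the order was different for several members. There, Bach2 was the only member at least 2-fold higher in libraries 7 and 8 (1.13, 0.72 to 1.56), and Pax5 (-1.21), Irf4 (-2.10), Spib (-1.71), Prdm1 (-1.77), and Xbp1 (-1.32) were at least 2-fold lower. Of 8177 genes, 21.1% were higher and 11.8% lower by this measure. Irf4 hence went from 7.48-fold higher in libraries 7 and 8 over all cells to 4.29-fold lower in Jchain-high cells. Pax5, Spib, and Prdm1 were at least 2-fold lower in libraries 7 and 8 whether all cells or Jchain-high cells were compared.

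To compare detection at equal depth, each cell was thinned to 5000 UMIs, which left out 272 other cells and no Jchain-high cell in libraries 5 and 6, and 384 and 6 in libraries 7 and 8. Xbp1 was then found in all 63 Jchain-high cells of libraries 5 and 6 and in 85.5% of those of libraries 7 and 8, against 28.3% and 38.8% of the others. Prdm1 was found in 47.6% and 19.7% of Jchain-high cells and in 4.94% and 0.371% of the others. No background share for Prdm1 was estimated from cells that should lack it, so the part of free RNA in the shares of other cells was not tested. Unthinned, Prdm1 was seen in 76.2% and 34.1% of Jchain-high cells and in 9.08% and 0.734% of other cells, at median depths of 11688 and 11207 against 8760 and 10230 UMIs.

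Irf4 was detected in 57.1% of thinned Jchain-high cells and 1.47% of other cells in libraries 5 and 6, and in 21.1% and 16.1% in libraries 7 and 8. For Irf8 the shares were 49.2% and 90.7% in libraries 5 and 6 and 69.7% and 53.1% in libraries 7 and 8, so the change of direction held at equal depth. Pax5 was found in 22.2% of Jchain-high cells against 57.7% of the others in libraries 5 and 6, and in 6.58% against 23.8% in libraries 7 and 8. Bcl6 was found in 0 of 63 Jchain-high cells of libraries 5 and 6, which allows a share of up to 4.76%, against 7.76% of the others, and in 1.32% against 11.6% in libraries 7 and 8. Pax5, Ebf1, Bach2, Bcl6, and Spib, the 5 members lower in each library above, were also detected in a smaller share of Jchain-high cells in both pairs. These shares come from the same counts, and the share of all genes detected in fewer Jchain-high cells was not computed. By CPM, only 24.4% and 26.2% of genes with at least 10 expected UMIs had log2 ratios above 0 in the respective pairs. The unthinned shares for Pax5 were 47.6% against 76.8%, and 14.6% against 40.7%.

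**Figure D3:**
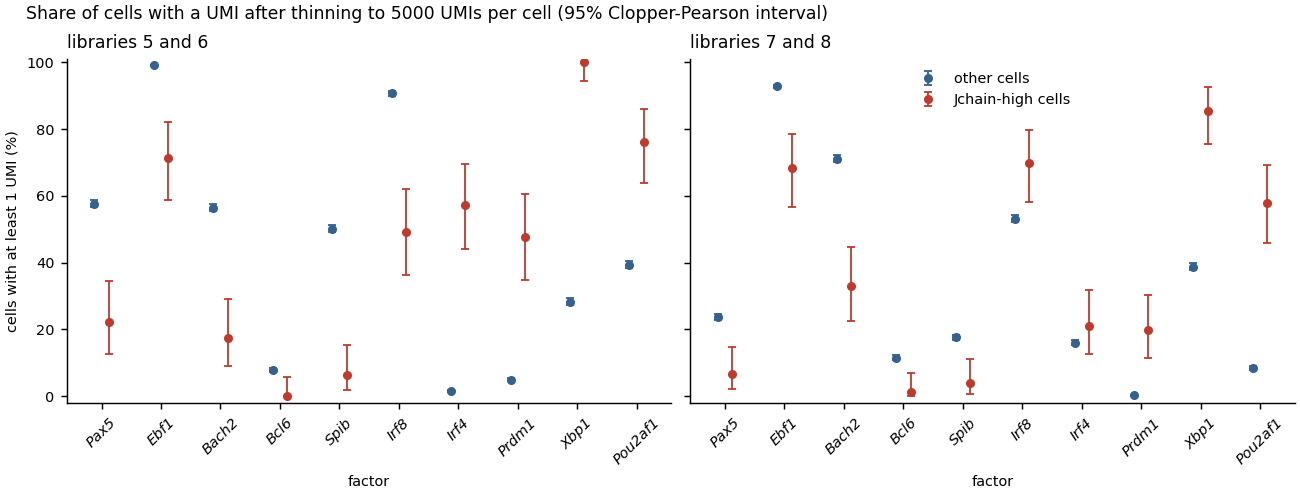
Share of cells with at least 1 UMI of each factor (y axis, percent) after thinning every cell to 5000 UMIs, for libraries 5 and 6 (left) and 7 and 8 (right), with red points for Jchain-high cells, blue points for other cells, and bars for the 95% Clopper-Pearson interval. Xbp1 reaches 100% and 85.5% of Jchain-high cells, and Irf8 lies below the other cells on the left (49.2% against 90.7%) and above them on the right (69.7% against 53.1%).

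Among Jchain-high cells, Xbp1 per cell ran from 1.71 to 65.4 UMIs per 10000 UMIs in libraries 5 and 6, with a median of 12.8, and from 0 to 37.7 in libraries 7 and 8, with a median of 4.51 and 6 cells at 0. Prdm1 had a median of 1.18 and 15 of 63 cells at 0 in libraries 5 and 6, and 54 of 82 cells at 0 in libraries 7 and 8. Pax5 was at 0 in 33 of 63 and 70 of 82 Jchain-high cells, and Ebf1 in only 6 and 14. At these counts a cell at 0 may hold the transcript, so the zeros were not read as variation between cells.

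Levels of the factors also changed along the Jchain count itself in libraries 5 and 6. Cells with 0, 1, and 2 to 4 Jchain UMIs had 74.3, 213, and 532 CPM of Xbp1, and cells with 5 to 9, 10 to 49, and 50 or more had 1334, 782, and 1956 CPM. Irf4 was at 3.40, 22.3, and 111 CPM in the 3 lower bins and at 173 to 275 CPM in the 3 upper ones. Cells below the threshold but with some Jchain thus lay between the classes for both. The 2 to 4 bin held 9 cells and the 5 to 9 bin 5 cells, and thinly filled bins such as these decide the shape between the ends.

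In the same libraries, Irf8 was at 552, 577, and 754 CPM in cells with 0, 1, and 2 to 4 Jchain UMIs, and at 508, 386, and 83.4 CPM above. The lowest Irf8 level was hence that of the 33 cells with 50 or more Jchain UMIs, where Ebf1 was also lowest, at 277 CPM against 1221 CPM at 0 Jchain UMIs. In libraries 7 and 8, Irf8 was at 200, 170, and 149 CPM in the lower bins and at 527, 326, and 302 CPM in the upper ones, with 5, 33, and 44 cells. Xbp1 ran over 104, 142, 149, 250, 483, and 621 CPM there, in order of the bins. Irf4 lay between 42.3 and 102.9 CPM in these libraries, with the highest value in the 2 to 4 bin of 10 cells.

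**Figure D4:**
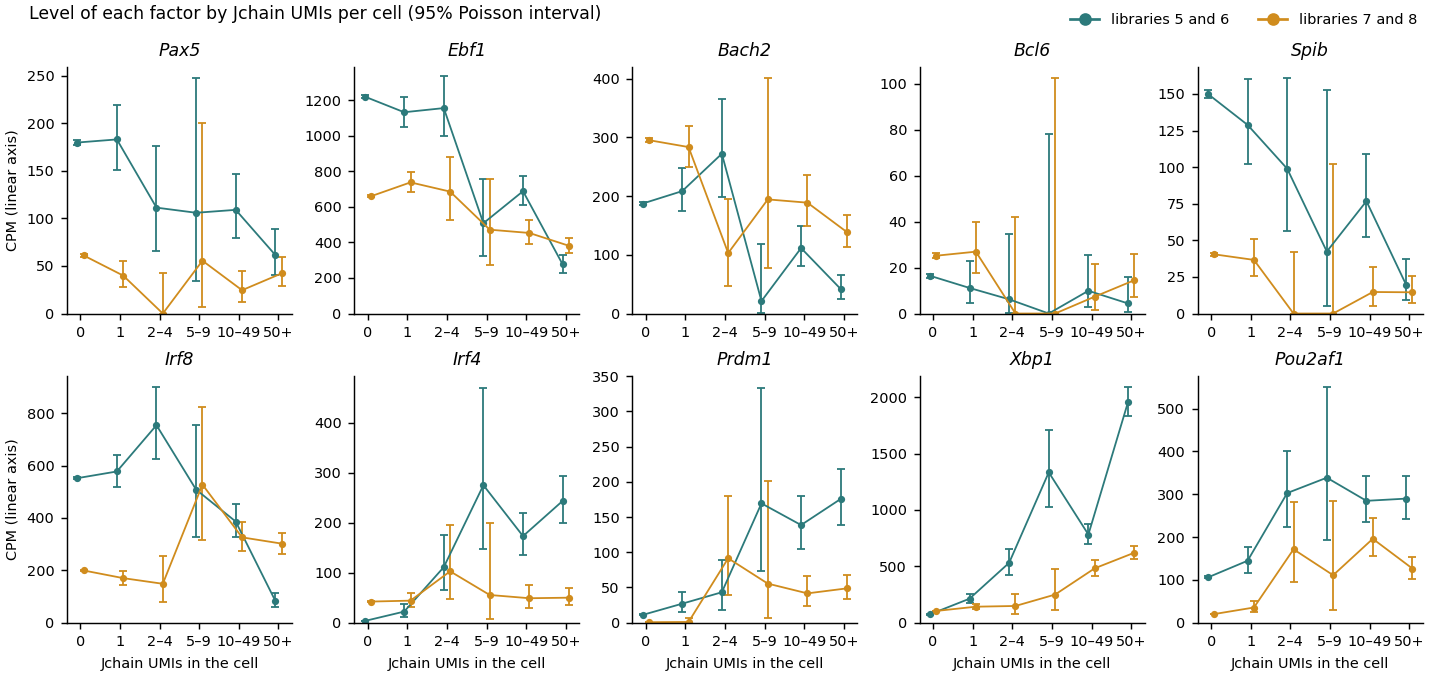
Level of each factor in CPM (y axis, linear, from 0) against the number of Jchain UMIs in the cell (x axis, 6 bins), for libraries 5 and 6 (teal) and 7 and 8 (orange), with bars for the exact Poisson 95% interval. In libraries 5 and 6 Xbp1 reaches 1956 CPM and Irf8 83.4 CPM in the top bin, whereas Irf8 in libraries 7 and 8 stands at 302 CPM there; the bins at 2 to 4 and 5 to 9 hold 5 to 10 cells each.

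Irf4 was also followed within the other cells, those with under 5 Jchain UMIs, after thinning. In libraries 5 and 6, 8449 such cells had no Irf4 UMI, 111 had 1, 12 had 2 or 3, and 3 had 4 or more. From 0 to 4 or more Irf4 UMIs, Prdm1 was at 11.3, 30.6, 117, and 0 CPM, and Xbp1 at 74.8, 177, 550, and 1200 CPM. Pax5 was at 179 CPM without Irf4, 139 CPM with 1 UMI (109 to 173), and 83.3 CPM with 2 or 3 (27.1 to 194). Cells with 1 Irf4 UMI had more Xbp1 than cells with none in library 5 (256 against 75.7 CPM) and in library 6 (126 against 73.9 CPM). With 2 or 3 UMIs the libraries parted, since Xbp1 was at 120 CPM in library 5 (24.7 to 351, 3 UMIs in 5 cells) and at 857 CPM in library 6 (578 to 1224, 30 UMIs in 7 cells). Prdm1 at 1 Irf4 UMI was at 51.2 CPM in library 5 (25.5 to 91.5) and at 17.6 CPM in library 6 (6.48 to 38.4), and the latter interval includes the 11.9 CPM of cells without Irf4. Irf8 was at 539, 602, and 600 CPM in the first 3 bins of the pair. Before thinning, the other cells of libraries 5 and 6 included 15 and 43 cells with 1 to 4 Jchain UMIs. Such cells had more Irf4 and Xbp1 than cells without Jchain, and their part in these bins was not tested.

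In libraries 7 and 8 Irf4 was counted in more of these cells: 1114 other cells had 1 Irf4 UMI, 329 had 2 or 3, and 31 had 4 or more. Xbp1 was at 105, 111, 106, and 110 CPM from 0 to 4 or more Irf4 UMIs, and Ebf1 at 671, 690, 723, and 781 CPM. Prdm1 was at 0.911, 0.539, and 1.22 CPM in the first 3 bins and at 19.4 CPM (3.99 to 56.6) in the last, which rests on 3 UMIs. Irf8 was lower with more Irf4, at 206, 178, 155, and 148 CPM, and the intervals at 0 (202 to 211) and at 2 or 3 UMIs (137 to 175) did not overlap. Bcl6 was at 25.3, 26.4, 31.0, and 51.6 CPM, with the interval of the last bin (22.3 to 102) including the level of the lowest.

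**Figure D5:**
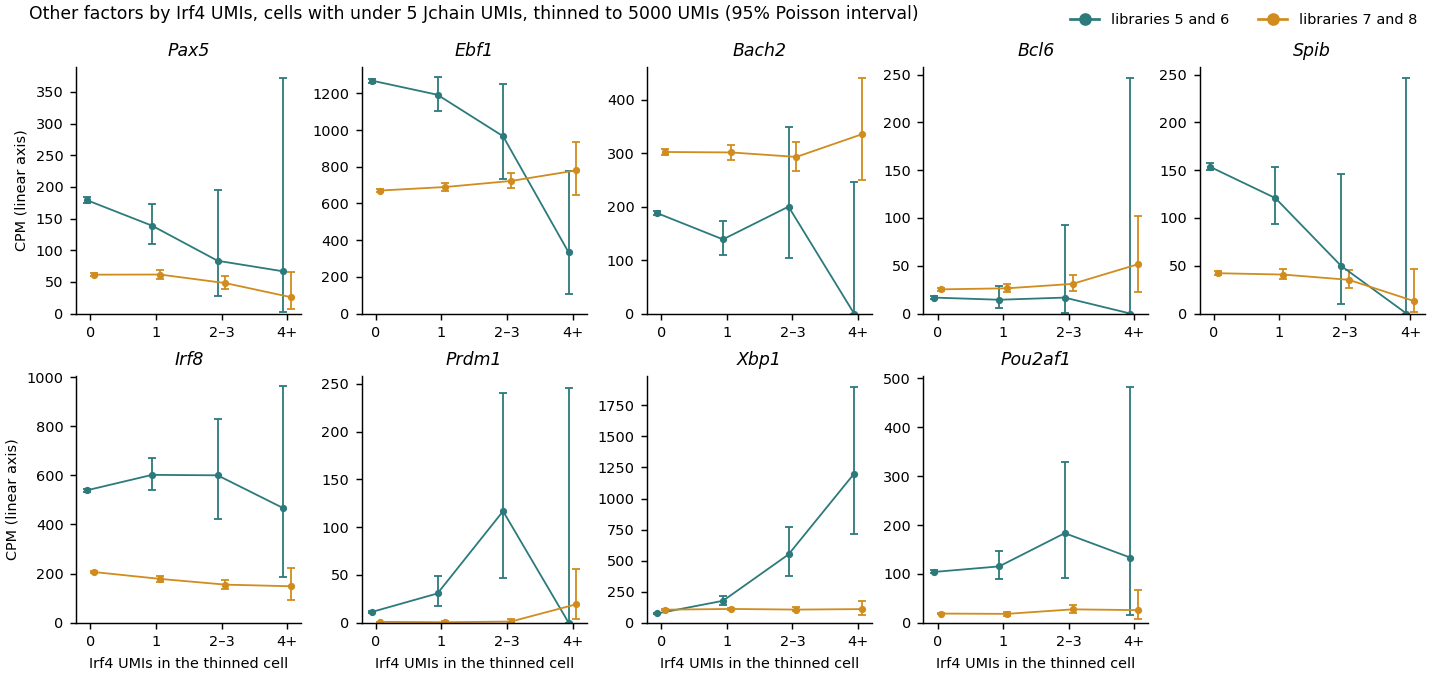
Level of each other factor in CPM (y axis, linear, from 0) against Irf4 UMIs in the thinned cell (x axis, 4 bins) among cells with under 5 Jchain UMIs, for libraries 5 and 6 (teal) and 7 and 8 (orange), with bars for the exact Poisson 95% interval. Xbp1 is at 74.8, 177, and 550 CPM in the first 3 bins of libraries 5 and 6, the last of these being 120 CPM in library 5 and 857 CPM in library 6, and at 105 to 111 CPM in libraries 7 and 8; the last teal bin holds 3 cells.

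Factors of opposing programs were counted together in the same thinned cells. Pax5 and Prdm1 were both found in 6 of 63 Jchain-high cells of libraries 5 and 6, where the product of their shares gives 6.67 cells, and in 241 of 8575 other cells, where it gives 244.8. In the other cells of libraries 7 and 8 they were found together in 9 cells, against a product of 8.11. Co-detection of Pax5 and Prdm1 was thus close to what the separate shares give in these groups. In Jchain-high cells of libraries 7 and 8 it was 2 cells against 0.987. Bach2 and Prdm1 were found together in 265 other cells of libraries 5 and 6, against a product of 239. In libraries 7 and 8 they were together in 25 other cells, against 24.2. For Bcl6 and Prdm1 in other cells, the counts were 38 against 32.9 in libraries 5 and 6 and 1 against 3.94 in libraries 7 and 8. Irf4 and Irf8 were found together in 708 other cells of libraries 7 and 8, against a product of 783, and in 15 Jchain-high cells of libraries 5 and 6, against 17.7. For Bcl6 and Prdm1 in Jchain-high cells, Bcl6 was too rare (0 of 63 and 1 of 76 cells) for a joint count.

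Other genes of these programs were counted from lists, each gene against the same 2-fold limit. Of 23 plasma cell and secretory genes with at least 10 UMIs, 22 were higher in Jchain-high cells of libraries 5 and 6 and 19 in those of libraries 7 and 8, with median log2 ratios of 2.96 and 1.94, beside the 10.2% and 10.0% of all genes given above. Mzb1, a chaperone of B cells and plasma cells, was at 3108 CPM in Jchain-high cells of libraries 7 and 8 against 122 CPM in the others, and the disulfide isomerase gene Txndc5 was at 675 CPM against 26.7 CPM in libraries 5 and 6. Of 18 B cell lineage genes, 8 were lower and 0 higher in Jchain-high cells of libraries 5 and 6 (median -0.69), but 0 were lower and 5 higher in libraries 7 and 8 (median -0.06), and over all genes 13.2% and 9.02% were lower in the respective pairs. Cd79a, the signaling chain of the B cell receptor, was at 3239 CPM in Jchain-high cells of libraries 7 and 8 against 1023 CPM. Fcer2a (CD23) was at 1.10 CPM against 20.5 CPM in libraries 5 and 6. The former value rests on 1 UMI, and the interval of the log2 ratio was -9.52 to -1.74. Of the 18 lineage genes, 13 were within 2-fold between the classes of libraries 7 and 8.

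Over all cells, 15 of the 18 lineage genes were at least 2-fold lower in libraries 7 and 8 than in libraries 5 and 6 (median -2.48), a larger shift than that of Pax5 (-1.56) or Ebf1 (-0.88). Ms4a1 (CD20) was at 34.1 CPM in libraries 7 and 8 against 1505 CPM, and Mzb1 at 155 CPM against 1498 CPM. Sdc1, which encodes the plasma cell antigen CD138, was instead higher in libraries 7 and 8, at 6.91 CPM against 0.207 CPM. Within libraries 7 and 8, Sdc1 was within 2-fold between Jchain-high and other cells, so it did not mark the Jchain-high class there. Among 26 other B cell transcription factors, 5 were higher and 10 lower in libraries 7 and 8, beside 16.3% and 19.0% of all genes, with Id2, an inhibitor of E proteins, at 120 CPM against 15.2 CPM and Klf2, a factor of resting lymphocytes, at 7.51 CPM against 452 CPM. In Jchain-high cells against other cells, 3 of these 26 were higher and 7 lower in libraries 5 and 6, and 5 were higher and 6 lower in libraries 7 and 8, against the shares of all genes given for these comparisons (10.2% and 13.2%, then 10.0% and 9.02%). Myc was at 3.31 CPM (3 UMIs) in Jchain-high cells of libraries 5 and 6 against 15.5 CPM in the others. In Jchain-high cells of libraries 7 and 8 it was at 66.5 CPM (80 UMIs).

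Of 8 germinal center genes with at least 10 UMIs, 1 was higher and 4 were lower in Jchain-high cells of libraries 5 and 6, and 2 were higher and 2 lower in libraries 7 and 8, beside 10.2% and 13.2%, and 10.0% and 9.02%, of all genes. Mef2b, a transcription factor known to activate Bcl6, was at 26.6 CPM against 3.96 CPM in libraries 7 and 8. Mki67, a gene of cycling cells, had no common direction in libraries 5 and 6, with 25.6 CPM in Jchain-high cells against 58.7 CPM in the others in library 5 and 244 CPM against 68.0 CPM in library 6. Among the thinned Jchain-high cells of library 6, 1 cell held 33 Mki67 UMIs. Libraries 7 and 8 together had 19.96 CPM against 30.2 CPM.

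Genes with a pattern most like that of a member were ranked over 8 groups, the Jchain-high and other cells of each library, by Pearson's r of log2(CPM + 1) among 10537 genes. These 8 points share 4 libraries and their depths, and the values are a description. For Pax5, the nearest were Rcsd1, Leng8, and Trim34a, each at r = 0.99, and among the members Spib was nearest at 0.98. Prdm1 was matched best by Pdia4, Tmem154, and Isg20, each at 0.99, and among the members by Pou2af1 at 0.97 and then Xbp1 at 0.87. Irf4 was at 0.51, Irf8 at 0.04, Pax5 at -0.12, Spib at -0.24, and Ebf1 at -0.52. Bcl6 (-0.90) and Bach2 (-0.88) had the lowest values of the members, and the share of all genes as low was not computed.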

How the data were processed

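The authors prepared 10x Genomics Chromium 3' v3 libraries and, per the labels and the methods, ran bcl2fastq and Cell Ranger 3.1.0 with mouse mm10 and Ensembl genes, then combined libraries with Cell Ranger aggr, which evens depth; its mode is not given in the sources used here. The deposited matrix holds whole UMI counts, which were used without further normalization. Its 35989 columns exceed the 19920 listed barcodes, which were placed on the last columns. Mzb1 counts split best after barcode 9766, exactly where library 7 begins, and the 16069 earlier columns were not used. Cells with at least 1000 genes and under 10% mitochondrial UMIs were kept. Counts were summed per library and Jchain class and given as CPM. Log2 ratios have exact conditional 95% intervals and shares Clopper-Pearson 95% intervals, all for counting error only. Since cells are not replicates and no library could be matched to a sample, no p-value was computed and no count model was fitted. A group at 0 was set to 3 counts for fold calls over all genes. Named genes were all 10 members, Jchain, and Mki67, from each list among the 4 genes with at least 20 UMIs farthest from a log2 ratio of 0, and the 3 genes most like Pax5 and Prdm1, and some of the genes this names are not reported here. The members, lists, and comparisons were chosen with earlier results of these data known. Motifs were searched as letters in RefSeq promoters, and gene positions come from GENCODE vM21 on GRCm38. Python 3.11.15, NumPy 2.4.6, SciPy 1.17.1, pandas 2.3.3, and matplotlib 3.10.9 were used. The interval and call steps were tested on simulated Poisson counts of well counted genes. Those counts held no spread between cells, so the test does not cover it. Depth, cell limits, denominators, thinning, Jchain thresholds, and left-out libraries were varied.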

Additional observations from a re-analysis of the deposited data

Results flagged for a closer look

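Irf8 was singled out because its direction differed between the library pairs. Its log2 ratio of Jchain-high to other cells was -1.20 in libraries 5 and 6, where both libraries were negative (-1.49 and -1.08), and 0.67 in libraries 7 and 8, where both were positive (0.77 and 0.47). The difference was not tested, since the libraries could not be assigned to the labelled samples.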

How the results depend on the processing

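Each member kept its direction in all 130 recomputed values in libraries 5 and 6, all 130 in libraries 7 and 8, and all 110 between the pairs. These values largely reuse the same cells, and some directions were slight. In libraries 7 and 8, Irf4 lay between 0.04 and 0.57, and Pax5 reached -0.10. The count of members at least 2-fold lower in Jchain-high cells was less steady. In libraries 5 and 6 it was 6 and became 1 when ratios were counted from the median of all genes with 10 expected UMIs, a choice made after seeing the data. There it was also 4 without library 5, 5 in thinned cells, and 4 with the other denominator described next. As a mean over cells, and without the 5% of cells with the most UMIs, it stayed at 6. In libraries 7 and 8 it was 2 and became 1 with that centring, 1 with a denominator without immunoglobulin, Jchain, mitochondrial, and ribosomal protein genes, 5 as a mean over cells, 4 in thinned cells, 5 without the 5% of cells with the most UMIs, and 0 to 4 when a library was left out. The other denominator adds to each ratio by its construction, and the cause of the remaining shifts was not tested. Counts of members that were higher, and the counts between the pairs, stayed within 1.5 times of their values under each alternative run. The lowest and highest Irf8 values were -1.74 and -0.79 in libraries 5 and 6 and 0.47 and 1.00 in libraries 7 and 8. Bcl6 rests on 6 and 14 UMIs in Jchain-high cells, and thinned it was at 0 in libraries 5 and 6, where 3 counts were set. No paired analysis was possible because no library could be matched to a labelled replicate, and no test was made.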
